A study of Mus musculus with 8 samples.

Results

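Plasminogen activators, tissue factor and the proteins that hold them in check were followed in mouse pancreatic stellate cells (PSCs). The set named 8 genes, Plau, Plat, Plaur, Serpine2, F3, Thbd, Tfpi and Tfpi2, and its members were taken as the rows of the PSC count table that carry these symbols. Of the 8 genes, 7 had a row among the 12160 genes of the table, and Plau, which encodes urokinase, had none and was not analysed. All cells came from 1 immortalized mouse PSC line, so the libraries are separate domes of that line and not separate animals. For each dome the labels give 20000 cells seeded in growth factor reduced Matrigel, 4 days in growth medium and 4 days in 1 of 3 test media. The test media were medium conditioned by KPC organoids carrying an shRNA against Brca2 (shBrca2-CM, 3 domes), medium conditioned by KPC organoids carrying a non-targeting shRNA (shControl-CM, 3 domes) and a control (2 domes). Such organoids are 3D cultures of cancer cells from a mouse pancreatic tumor model, and the cancer cells were silenced with lentiviral shRNA, whereas the PSCs themselves carried no silencing. The control is named DMEM in the sample titles and PSC own conditioned medium in the recorded treatment, and it is called control medium here. Nothing in the labels says that the domes of a group were set up on separate days, so the p-values measure the spread between these domes only.

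Tissue factor, encoded by F3, is the membrane receptor of factor VIIa and starts the clotting cascade, and it is a known product of fibroblasts. The cascade is held back by tissue factor pathway inhibitor (Tfpi) and by thrombomodulin (Thbd), a membrane protein that turns thrombin from clotting towards activation of protein C. Clots and matrix are then broken down by plasmin, which urokinase (Plau) and tissue-type plasminogen activator (Plat) release from plasminogen. The urokinase receptor (Plaur) holds urokinase at the cell surface, protease nexin-1 (Serpine2) inhibits thrombin, urokinase and tissue-type plasminogen activator, and Tfpi2 is a matrix-bound inhibitor of plasmin and related proteases.

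The main contrast in this set was between tissue factor and thrombomodulin. F3 was 20.0-fold lower with shControl-CM and 7.02-fold lower with shBrca2-CM than with control medium, as ratios of mean CPM (counts scaled to library size after TMM normalization over the 8 libraries). Thbd was 2.64-fold and 1.91-fold higher in the same comparisons. Plat and Serpine2 were lower with both conditioned media. F3 was 2.84-fold higher with shBrca2-CM than with shControl-CM and was the 1 member called differentially expressed (DE) between them.

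The libraries differed in depth along with the medium. Control medium libraries held 4623846 to 5476988 counts on genes, shControl-CM libraries 1093609 to 1624392 and shBrca2-CM libraries 655996 to 1095534, so 3 counts corresponded to 0.521 to 0.645 CPM, 1.92 to 2.90 CPM and 2.66 to 4.34 CPM, respectively. Marker sums are given below in the order shBrca2-CM, shControl-CM and control medium. All 15 genes of a fibroblast and stellate cell marker list had a row, with summed levels of 5243 to 5526 CPM, 5308 to 5945 CPM and 7481 to 8389 CPM, led by S100a4, Dcn and Vim. Thbd, F3, Tfpi and Plaur are also made by endothelial cells or monocytes. Of 12 endothelial markers 5 had a row, with summed levels of 57.9 to 63.0 CPM, 53.2 to 70.0 CPM and 24.9 to 31.4 CPM, mostly from Egfl7, and Pecam1 and Cdh5 had none. Of 10 leukocyte and macrophage markers 5 had a row, with 106 to 158 CPM, 142 to 267 CPM and 44.9 to 64.1 CPM, led by Cd14, and Ptprc, Adgre1 and Itgam had none. Of 10 epithelial markers 3 had a row, with 59.3 to 94.1 CPM, 57.7 to 70.6 CPM and 37.0 to 41.7 CPM, and Epcam and Cdh1 had none. Of 5 platelet markers 2 had a row, with 44.8 to 60.8 CPM, 42.9 to 79.2 CPM and 57.4 to 60.1 CPM. The fibroblast sum was lower in every conditioned medium library than in control medium, but its genes went both ways. Col1a1, Col1a2, Col3a1, Col6a1, Postn and Vim were lower in all 6 conditioned medium libraries, Vim from 3396 and 4115 CPM to between 243 and 749 CPM. Thy1, Dcn and Pdpn were higher in all 6, Dcn from 80.0 and 105 CPM to between 910 and 2257 CPM, and the other 6 overlapped. The endothelial, leukocyte and epithelial sums were higher with both conditioned media, through Egfl7, through Cd14 and Cd68, and through Krt18 and Muc1, whereas Krt19 and Kdr were lower in all 6 libraries. The part of these cells in the results was not tested. In a bulk library, fewer cells that make an RNA and less of that RNA per cell cannot be told apart.

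**Figure D1:**
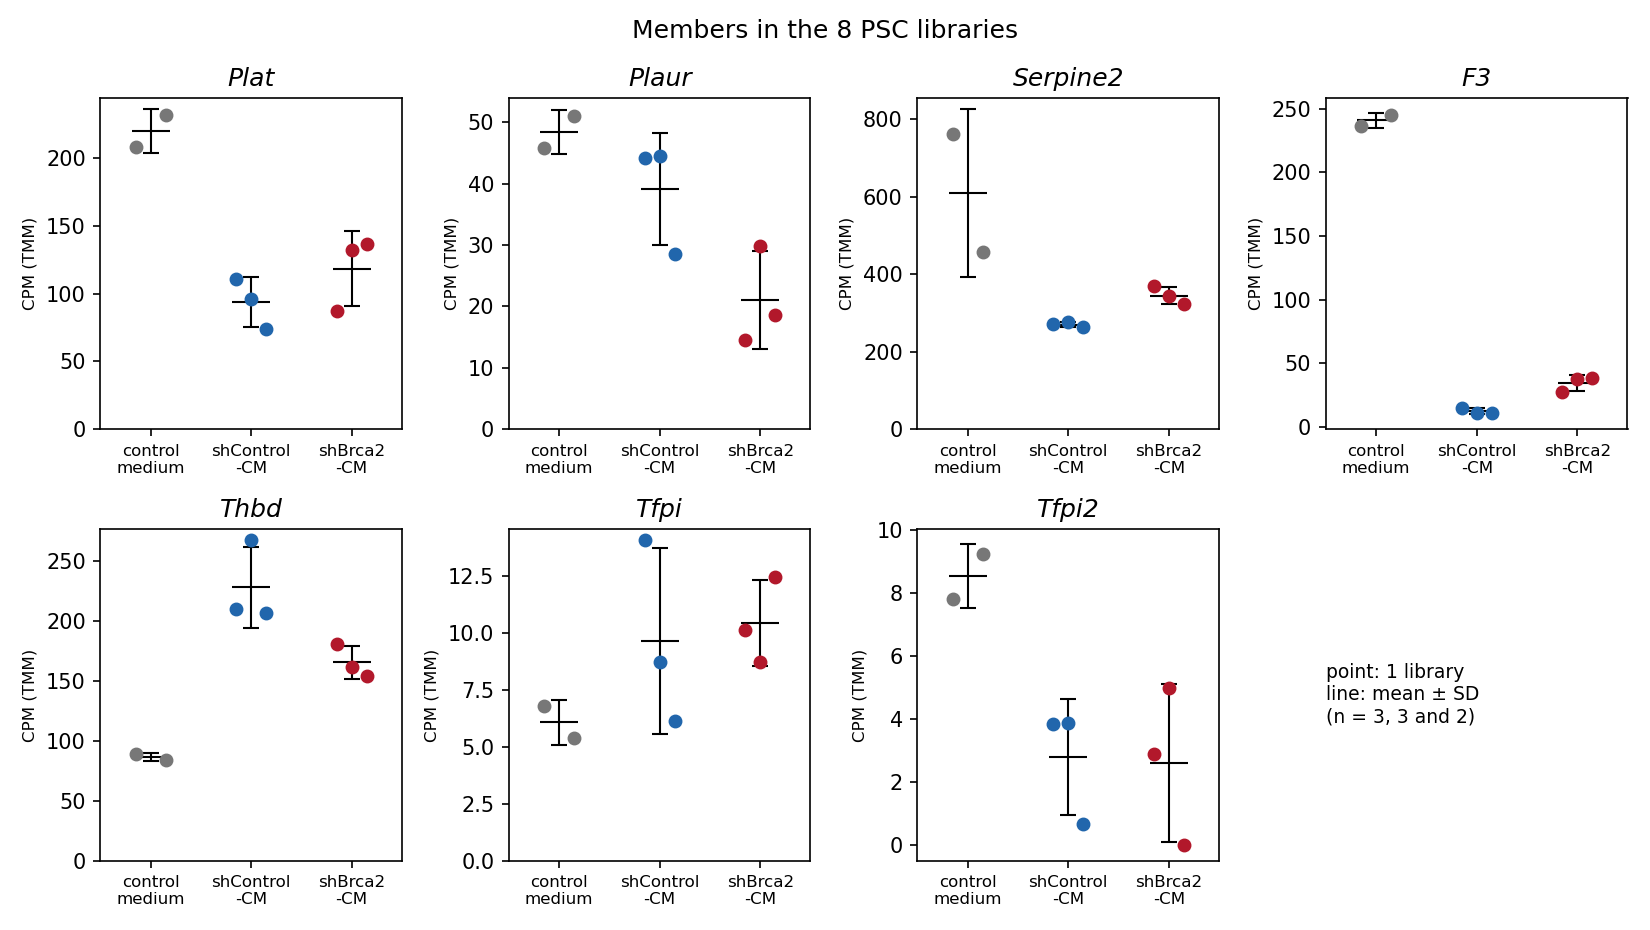
CPM (TMM-normalized, linear axes) of the 7 members in each of the 8 libraries, with 1 point per library and the mean ± SD of each medium. F3 lies at 237 and 245 CPM in control medium and at no more than 38.2 CPM in any conditioned medium library, while Thbd lies at no more than 89.2 CPM in control medium and at no less than 154 CPM in conditioned medium.

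F3 (chromosome 3, 121723537 to 121735052 on GRCm38.p6, the RefSeq annotation of the mm10 build that the submitters' notes name) gave the widest separation. The 250 bases before its RefSeq start are printed here because F3 moved most, beside those of Serpine2, which was also lower with both conditioned media and was at high counts. Capitals mark matches on either strand to the AP-1 motif TGANTCA and to the GC box GGGCGG.
F3, chr3:121723287-121723536, plus strand: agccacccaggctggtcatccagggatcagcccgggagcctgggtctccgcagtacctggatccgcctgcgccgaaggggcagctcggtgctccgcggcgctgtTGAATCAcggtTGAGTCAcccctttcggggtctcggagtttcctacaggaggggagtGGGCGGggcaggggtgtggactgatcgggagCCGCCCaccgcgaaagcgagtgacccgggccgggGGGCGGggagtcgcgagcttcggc
Serpine2, chr1:79858666-79858915, minus strand: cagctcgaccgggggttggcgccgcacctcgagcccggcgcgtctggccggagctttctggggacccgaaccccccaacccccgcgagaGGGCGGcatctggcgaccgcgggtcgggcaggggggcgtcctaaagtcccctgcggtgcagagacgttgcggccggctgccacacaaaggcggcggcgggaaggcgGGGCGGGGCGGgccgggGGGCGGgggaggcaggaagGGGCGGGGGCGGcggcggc
The F3 window held 2 AP-1 matches, beginning 146 and 135 bases before the start, and 3 GC boxes. The Serpine2 window held no AP-1 match and 6 GC boxes, of which 2 pairs touched or overlapped, and an EGR1 match (GCGGGGGCG) lay over the last pair. Of 32851 mouse windows of the same length, 6.75% held an AP-1 match, 32.7% a GC box and 2.57% an EGR1 match. The other motifs searched, on both strands as well, were the heat shock element (GAANNTTC, in 6.69% of all windows), the CRE (TGACGTCA, 1.55%) and the TATA box (TATAAA, 12.4%), and none of these was in either window. Of the 7 members 5 had a promoter entry. Unlike those of F3 and Serpine2, the windows of Plaur, Tfpi and Tfpi2 precede starts inside the gene spans given below. They therefore lie wholly or partly within these genes. The Plaur window held 1 AP-1 match, 3 GC boxes and 1 EGR1 match. The 2 Tfpi windows held 1 GC box each, and 1 of them a TATA box. Of the 3 Tfpi2 windows 1 held an AP-1 match, 2 GC boxes and an EGR1 match, and another a heat shock element. Plat and Thbd had no entry. These matches describe letters only.

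Tissue factor RNA fell steeply with both conditioned media. F3 had 1363 and 1140 counts in control medium, 23, 11 and 16 with shControl-CM, and 19, 30 and 43 with shBrca2-CM. This corresponds to 237 and 245 CPM, to 14.7, 10.6 and 10.9 CPM, and to 27.5, 37.3 and 38.2 CPM. The 3 media did not overlap, in the order control medium, shBrca2-CM, shControl-CM. Means were 241 ± 5.78 CPM (SD, n = 2), 34.3 ± 5.94 CPM (SD, n = 3) and 12.1 ± 2.31 CPM (SD, n = 3) in that order. Log2 fold changes were -4.30 with shControl-CM against control medium (SE 0.20, edgeR adjusted p = 8.72e-07) and -2.78 with shBrca2-CM against control medium (SE 0.18, edgeR adjusted p = 2.25e-20). Both were called under all 14 alternatives that recomputed each comparison at the call rule given in the next paragraph, with log2 fold changes of -4.42 to -4.21 and -2.88 to -2.76 outside the fits that left out a library.

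In the direct comparison of the conditioned media, F3 was higher with shBrca2-CM by a log2 fold change of 1.52 (95% interval 0.90 to 2.14, edgeR adjusted p = 0.0149). A gene was called DE when its Benjamini-Hochberg adjusted p was below 0.1, its mean normalized count exceeded 5 and its log2 fold change exceeded 0.5 in size. By this rule 345 of the 11035 genes tested between the conditioned media were DE, 3.13% of them, with 1.58% higher in shBrca2-CM and 1.55% lower. This background moved with single libraries, to between 128 and 175 DE genes without any 1 shBrca2-CM library or shControl-CM replicate 2 and to 976 without shControl-CM replicate 1, and the split of 174 higher and 171 lower became 250 and 120 when libraries were scaled by total counts alone. Of the 7 members 1 was DE, F3, which was higher. The F3 call rested on 19 to 43 counts per shBrca2-CM library and 11 to 23 per shControl-CM library. It was lost without shBrca2-CM replicate 2 (log2 fold change 1.47, edgeR adjusted p = 0.109) and without shBrca2-CM replicate 3 (1.44, edgeR adjusted p = 0.111), and it was kept in the other 13 of 15 alternatives. DESeq2's likelihood ratio test, the test the study used, was among those that called it.

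Thrombomodulin RNA moved the other way. Thbd (chromosome 2, 148404471 to 148408188) was at 89.2 and 84.0 CPM in control medium, at 181, 162 and 154 CPM with shBrca2-CM, and at 210, 268 and 207 CPM with shControl-CM. The 3 media again did not overlap, and control medium was lowest. Against control medium the log2 fold change was 1.39 with shControl-CM (SE 0.18, edgeR adjusted p = 0.000403) and 0.93 with shBrca2-CM (SE 0.15, edgeR adjusted p = 1.40e-06), and both calls held in all 14 alternatives at that rule. At the stricter rule of adjusted p under 0.05 and log2 fold change over 1 in size, the call with shBrca2-CM was lost. The endothelial, leukocyte and epithelial sums given above were also higher with both conditioned media than with control medium, although not for each of their genes. Pecam1, Cdh5 and Ptprc, which define the first and second of these cell types, had no row, and the part of these cells in the Thbd result was not tested.

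The conditioned media differed in Thbd by -0.44 on the log2 scale (shBrca2-CM against shControl-CM, 95% interval -0.77 to -0.11, edgeR adjusted p = 0.208), short of the call. Although the 3 libraries of each group did not overlap, 19.8% of all genes tested had that property, and 3 of the 7 members (Serpine2, F3 and Thbd). The difference was called without shControl-CM replicate 1 (-0.52, edgeR adjusted p = 0.0651) and without shControl-CM replicate 3 (-0.52, edgeR adjusted p = 0.0850).

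The 2 Kunitz-type inhibitors were at low counts. Tfpi (chromosome 2, 84432855 to 84476775) had 39 and 25 counts in control medium, 22, 9 and 9 with shControl-CM, and 7, 7 and 14 with shBrca2-CM. On the CPM scale this was 6.78 and 5.37, then 14.1, 8.70 and 6.11, then 10.1, 8.71 and 12.4. The shControl-CM libraries overlapped both other groups. The log2 fold change against control medium was 0.79 with shBrca2-CM (SE 0.38, edgeR adjusted p = 0.0907), which passed the call, and 0.67 with shControl-CM (SE 0.41, edgeR adjusted p = 0.234), which did not. The first was called in 5 of 14 alternatives, did not pass the stricter rule and was lost without shBrca2-CM replicate 1 (0.81, edgeR adjusted p = 0.142), without shBrca2-CM replicate 3 (0.61, edgeR adjusted p = 0.370) and without control medium replicate 2 (0.65, edgeR adjusted p = 0.228). The second was called without shControl-CM replicate 3 (0.94, edgeR adjusted p = 0.0690). For shBrca2-CM against shControl-CM the log2 difference was 0.14 (95% interval -0.76 to 1.04, edgeR adjusted p = 0.926), which was not called. The size of difference that could have been detected was not tested.

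Tfpi2 (chromosome 6, 3962589 to 3988978) had 45 and 43 counts in control medium, 6, 4 and 1 with shControl-CM, and 2, 4 and 0 with shBrca2-CM. Control medium was thus higher than either conditioned medium in every library, at 7.82 and 9.24 CPM against at most 4.98 CPM. Log2 fold changes were -1.64 with shControl-CM (SE 0.52, edgeR adjusted p = 0.0351) and -1.86 with shBrca2-CM (SE 0.57, edgeR adjusted p = 0.00630). As summed counts per summed library size, control medium was 3.13-fold above shControl-CM (exact 95% interval 1.67 to 6.49) and 3.69-fold above shBrca2-CM (1.63 to 10.3), intervals that cover counting error only. The first call was lost without control medium replicate 1 (-1.73, edgeR adjusted p = 0.170), without control medium replicate 2 (-1.51, edgeR adjusted p = 0.215) and under the likelihood ratio test of DESeq2 (adjusted p = 0.121). The second was lost without shBrca2-CM replicate 3, whose count was 0 (-1.07, edgeR adjusted p = 0.165). The conditioned media had 6 and 11 counts in all, and their log2 difference was -0.18 with a 95% interval of -2.24 to 1.88.

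Ratios of counts within 1 library need no normalization, and only their change from medium to medium can be read. The ratio of Thbd to F3 counts was 0.376 and 0.343 in control medium, 14.3, 25.2 and 19.1 with shControl-CM, and 6.58, 4.33 and 4.05 with shBrca2-CM. The media were far apart, with every shControl-CM library above every shBrca2-CM library. Thbd and F3 each separated these 2 media alone, as did 19.8% of all genes tested. No share over other gene pairs was computed. The ratio of Tfpi to F3 counts had the same order, at 0.0286 and 0.0219, then 0.957, 0.818 and 0.562, then 0.368, 0.233 and 0.326. It shares the F3 denominator, and Tfpi alone overlapped between the conditioned media. The ratio of Plat to Plaur counts was 4.54 in both control medium libraries, 2.15 to 2.60 with shControl-CM and 4.42 to 7.33 with shBrca2-CM. For this pair shControl-CM lay apart, while shBrca2-CM and control medium overlapped. The ratio of Plat to Serpine2 overlapped among all 3 media, at 0.273 to 0.506, 0.282 to 0.409 and 0.235 to 0.423.

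**Figure D2:**
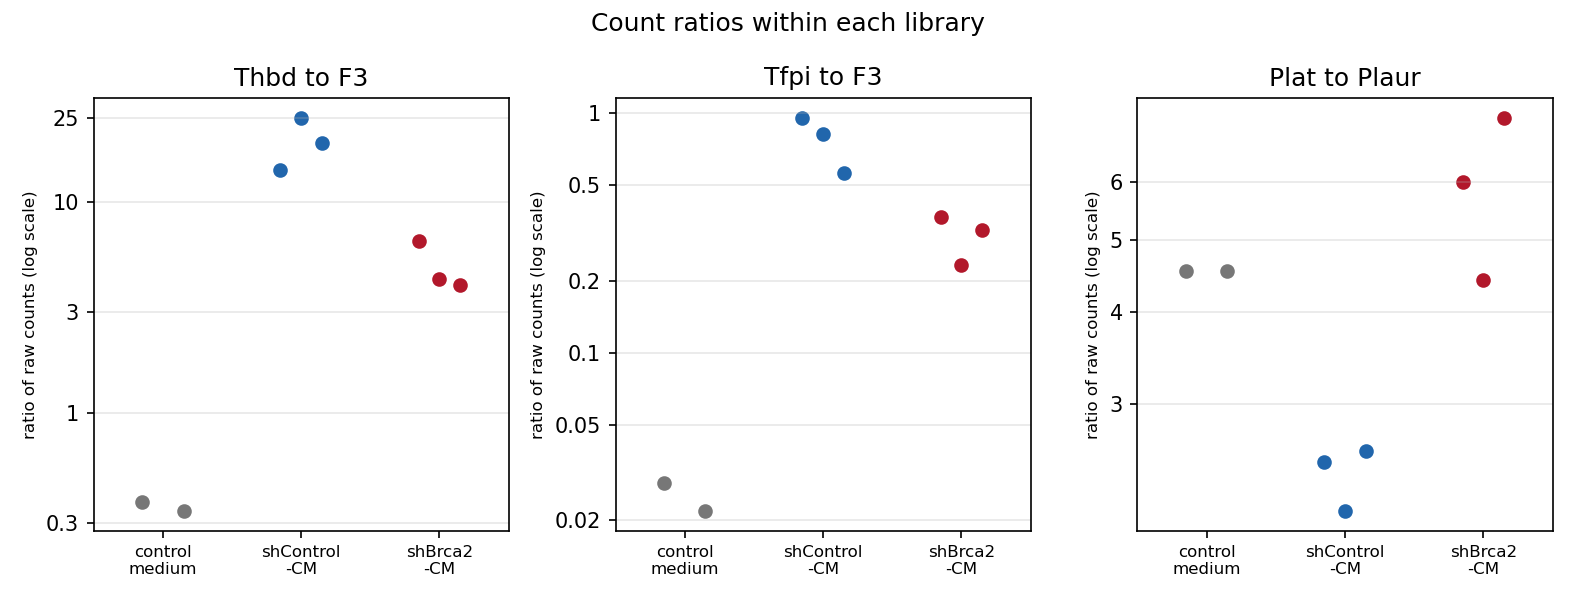
Ratios of raw counts of 2 genes within each library, on log axes, with 1 point per library. The Thbd to F3 ratio is under 0.4 in control medium, 4.05 to 6.58 with shBrca2-CM and 14.3 to 25.2 with shControl-CM, whereas the Plat to Plaur ratio is lowest with shControl-CM.

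Among the plasminogen activator genes, Plat (chromosome 8, 22757722 to 22782848) was at 208 and 231 CPM in control medium, at 111, 95.7 and 74.0 CPM with shControl-CM and at 86.8, 132 and 137 CPM with shBrca2-CM. Both conditioned media lay below control medium in every library and overlapped each other. The log2 fold change was -1.24 with shControl-CM (SE 0.19, edgeR adjusted p = 0.00115) and -0.87 with shBrca2-CM (SE 0.16, edgeR adjusted p = 7.39e-06), and both were called under all 14 alternatives, while the second did not pass the stricter rule. For shBrca2-CM against shControl-CM it was 0.38 (95% interval -0.07 to 0.82, edgeR adjusted p = 0.474).

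The urokinase receptor gene Plaur (chromosome 7, 24460937 to 24475970) was called lower with 1 of the conditioned media. It was at 45.9 and 50.9 CPM in control medium, at 44.2, 44.4 and 28.5 CPM with shControl-CM, and at 14.5, 29.9 and 18.6 CPM with shBrca2-CM. With shBrca2-CM it was lower than with control medium (log2 fold change -1.20, SE 0.24, edgeR adjusted p = 3.21e-05), a call that held in all 14 alternatives. With shControl-CM the log2 fold change was -0.32 (95% interval -0.85 to 0.20, edgeR adjusted p = 0.319), not called under any alternative. The direct comparison of the conditioned media gave -0.86 (95% interval -1.53 to -0.20, edgeR adjusted p = 0.219), with 1 shControl-CM library, replicate 3, inside the range of the shBrca2-CM libraries. It was called without that library (-1.06, edgeR adjusted p = 0.0380) and in none of the other 14 alternatives.

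Serpine2 (chromosome 1, 79794317 to 79858665), the protease inhibitor among the plasminogen activator genes, was at 763 and 457 CPM in control medium, at 271, 277 and 263 CPM with shControl-CM, and at 369, 343 and 323 CPM with shBrca2-CM. The media did not overlap, but the control medium libraries themselves differed 1.67-fold. The log2 fold change was -1.18 with shControl-CM (SE 0.21, edgeR adjusted p = 0.00223), called under all 14 alternatives. With single libraries left out, the log2 fold change with shControl-CM ranged from -1.51 to -0.75. It was -0.82 with shBrca2-CM (SE 0.15, edgeR adjusted p = 9.40e-06), and without control medium replicate 1 it was -0.40, under the fold needed for the call. It did not pass the stricter rule either. For shBrca2-CM against shControl-CM it was 0.38 (95% interval 0.11 to 0.64, edgeR adjusted p = 0.178), not called under any of 15 alternatives.

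**Figure D3:**
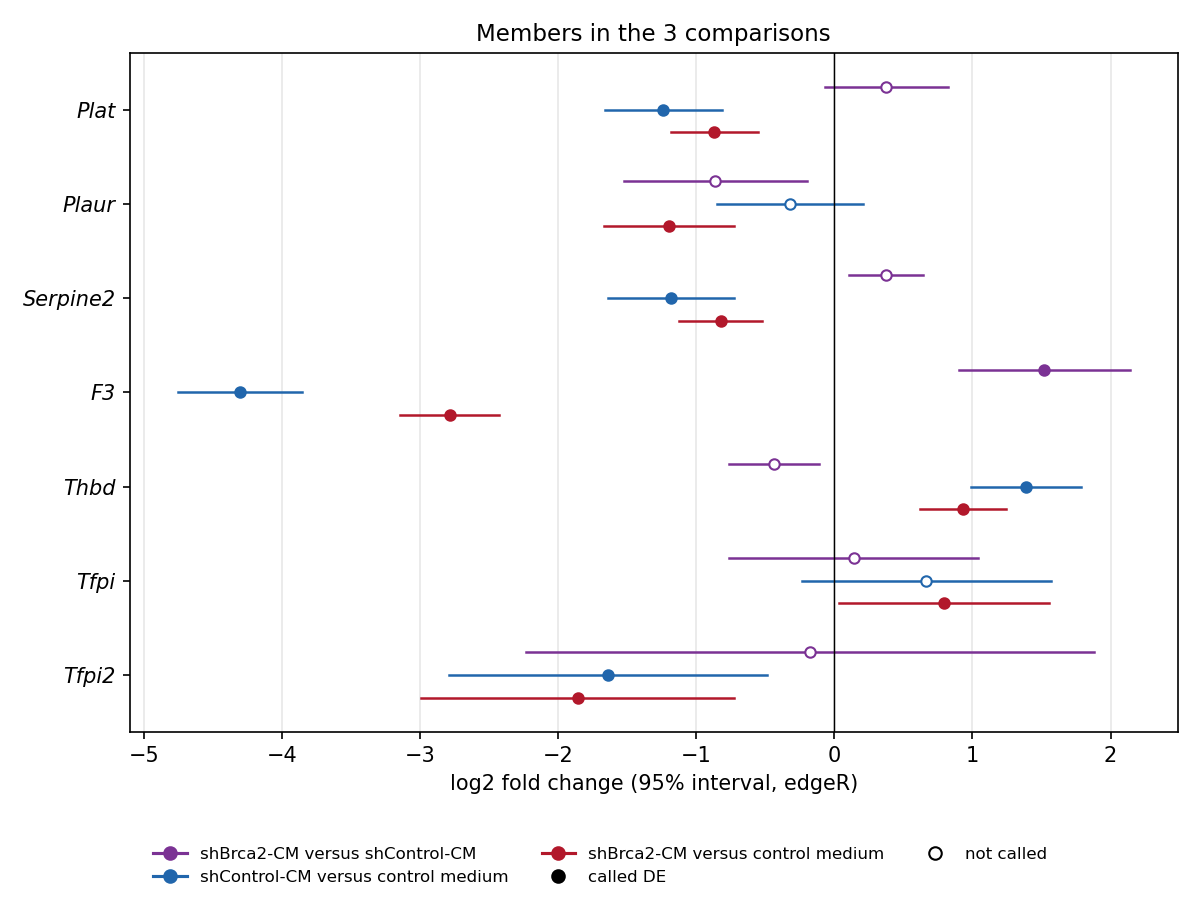
Log2 fold changes of the 7 members with 95% intervals from edgeR in the 3 comparisons, with filled points for DE genes and open points for the rest. Between the conditioned media only the F3 point is filled, at 1.52; against control medium F3 lies at -4.30 and -2.78 and Thbd at 1.39 and 0.93.

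Counted over the set, 5 of 7 members were DE with shControl-CM against control medium, Thbd higher and Plat, Serpine2, F3 and Tfpi2 lower, where 37.1% of the 12086 genes tested passed the rule, 18.2% upwards and 18.9% downwards. With shBrca2-CM against control medium each of the 7 with a row was DE, Thbd and Tfpi higher and the other 5 lower, where 37.8% of 12049 genes did, 18.6% upwards and 19.2% downwards. Members whose groups did not overlap numbered 6 of 7 and 7 of 7, against 59.9% and 57.4% of all genes tested. The median log2 fold change of the members was -1.18 and -0.87, beside -0.10 and -0.05 for all genes tested. Both comparisons use the same 2 control medium libraries, so their values are given side by side only. With the libraries thinned to 655996 counts each, the calls of Plat, Plaur, Serpine2, F3 and Thbd against control medium were kept, and those of Tfpi and Tfpi2 were not. Tfpi then had a log2 fold change of 0.84 with shBrca2-CM (edgeR adjusted p = 0.305). Tfpi2 still passed on fold and adjusted p with shControl-CM (-1.82, edgeR adjusted p = 0.0634) and with shBrca2-CM (-2.47, edgeR adjusted p = 0.00956), and missed only the mean count of 5. At the stricter rule 5 members were called with shControl-CM against control medium and 3 with shBrca2-CM (Plaur, F3 and Tfpi2), where 19.7% and 18.1% of all genes tested passed it. Between the conditioned media F3 passed it, beside 1.18% of all genes tested.

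Of the wider fibrinolysis list (27 genes besides the members: plasminogen, its receptors, serpins and related binding proteins), 17 had a row, and plasminogen (Plg) itself had none. Serpinb2, an inhibitor of both plasminogen activators, had at most 7 counts in any library. Lrp1, an endocytic receptor that clears complexes of activator and inhibitor, was at 760, 892 and 711 CPM on average and was not called.

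Against control medium, 7 of the 17 were DE with shControl-CM, 2 higher and 5 lower, and 8 of 17 with shBrca2-CM, 2 higher and 6 lower. These shares of 41.2% and 47.1% stand beside 37.1% and 37.8% of all genes tested. Anxa2 and S100a10, which together bind plasminogen and tissue-type plasminogen activator at the cell surface, were both lower. Anxa2 averaged 1434 CPM in control medium, 274 CPM with shControl-CM and 268 CPM with shBrca2-CM, with log2 fold changes of -2.40 (edgeR adjusted p = 1.23e-05) and -2.41 (edgeR adjusted p = 4.85e-22). S100a10 averaged 946, 267 and 381 CPM, with log2 fold changes of -1.83 (edgeR adjusted p = 2.57e-05) and -1.32 (edgeR adjusted p = 7.73e-12). The plasminogen receptor gene Plgrkt was lower as well, at 94.6, 46.2 and 59.5 CPM on average (log2 fold changes -1.06, edgeR adjusted p = 0.0115, and -0.66, edgeR adjusted p = 0.00159), the first call being lost without control medium replicate 1 (-0.98, edgeR adjusted p = 0.130).

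The serpin gene Serpinb8 had 129 counts over the control medium libraries and 8 and 7 over the shControl-CM and shBrca2-CM libraries, so it was 6.30-fold lower with shControl-CM (exact 95% interval 3.11 to 14.9) and 4.64-fold lower with shBrca2-CM (2.19 to 11.8), as summed counts per summed library size and with counting error only. Thbs1, a matricellular glycoprotein, averaged 227 CPM in control medium, 64.1 CPM with shControl-CM and 144 CPM with shBrca2-CM. Both decreases were called (log2 fold change -1.82, edgeR adjusted p = 0.000849, and -0.65, edgeR adjusted p = 0.00145), and the second was lost without shBrca2-CM replicate 1 (-0.44, edgeR adjusted p = 0.0574) and under the likelihood ratio test of DESeq2 (adjusted p = 0.263). Eno1, a glycolytic enzyme that also binds plasminogen and that has the near-identical copy Eno1b, was lower with shBrca2-CM (-0.68, edgeR adjusted p = 0.000236) and at -0.11 with shControl-CM (edgeR adjusted p = 0.764). The first call was lost without control medium replicate 2 (-0.40, edgeR adjusted p = 0.0476).

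The 2 genes of this list that were called higher against control medium were inhibitors by name. Serping1, the C1 inhibitor, averaged 36.2 CPM in control medium, 338 CPM with shControl-CM and 220 CPM with shBrca2-CM, with log2 fold changes of 3.21 (edgeR adjusted p = 2.22e-06) and 2.60 (edgeR adjusted p = 4.62e-20). Pi15, a secreted peptidase inhibitor, averaged 3.57, 23.4 and 11.1 CPM, but its shControl-CM libraries ran from 2.72 to 38.4 CPM. It was called in both comparisons (log2 fold change 2.64, edgeR adjusted p = 0.0248, and 1.53, edgeR adjusted p = 0.00375), and the first was lost without shControl-CM replicate 2 (2.49, edgeR adjusted p = 0.101), without control medium replicate 1 (3.56, edgeR adjusted p = 0.123) and without control medium replicate 2 (2.14, edgeR adjusted p = 0.241). The second was lost with all 3 media in 1 fit (1.53, edgeR adjusted p = 0.150). The median log2 fold change of the list was -0.24 and -0.30, beside the -0.10 and -0.05 of all genes tested.

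When the conditioned media were compared, 4 of the 16 fibrinolysis genes tested were DE, against 3.13% of all genes tested, and each call was lost when certain single libraries were left out. Thbs1 was higher with shBrca2-CM (log2 fold change 1.18, edgeR adjusted p = 0.0874), at 91.1 to 212 CPM against 39.4 to 89.1 CPM, and S100a10 was higher as well (0.54, edgeR adjusted p = 0.0997). Serpinf1, pigment epithelium-derived factor, a serpin that does not inhibit proteases, was lower (-0.66, edgeR adjusted p = 0.0169), and so was Serping1 (-0.60, edgeR adjusted p = 0.0791). Leaving out shBrca2-CM replicate 2 or shControl-CM replicate 2 ended the calls of all 4 (adjusted p up to 0.446), leaving out shBrca2-CM replicate 1 those of Serpinf1, Serping1 and S100a10, leaving out shBrca2-CM replicate 3 those of Serping1 and Thbs1, and leaving out shControl-CM replicate 1 that of S100a10. The S100a10 call was also lost with DESeq2's size factors (adjusted p = 0.124) and the Serping1 call with total counts for scaling (-0.48, edgeR adjusted p = 0.136). The median log2 fold change of the list was -0.0014, beside 0.03 for all genes tested.

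The wider coagulation list held 29 genes besides the members, of which 15 had a row. F2r, the thrombin receptor PAR1, was lower with both conditioned media, at 86.7 CPM on average in control medium, 9.93 CPM with shControl-CM and 15.5 CPM with shBrca2-CM (log2 fold change -3.11, edgeR adjusted p = 0.000119, and -2.47, edgeR adjusted p = 1.01e-13). F2rl1, encoding PAR2, had 11 and 17 counts in control medium and at most 2 in any conditioned medium library, and was not called. Procr, the endothelial protein C receptor, which works with thrombomodulin to activate protein C, was higher, at 13.4, 54.1 and 28.9 CPM on average. The increases were 2.01 on the log2 scale with shControl-CM (edgeR adjusted p = 0.000303) and 1.09 with shBrca2-CM (edgeR adjusted p = 0.000545), both called under all 14 alternatives. Pros1, protein S, the cofactor of activated protein C, was higher too, at 22.1, 85.1 and 87.5 CPM (log2 fold change 1.93, edgeR adjusted p = 0.000374, and 1.97, edgeR adjusted p = 1.95e-12).

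F7, the partner of tissue factor, had 6 counts in control medium in all, 20 with shControl-CM and 7 with shBrca2-CM, and the gene of factor X had no row. As summed counts per summed library size, again with intervals for counting error only, F7 was 8.53-fold higher with shControl-CM than with control medium (exact 95% interval 3.30 to 25.9). This difference was DE (edgeR adjusted p = 0.00856). With shBrca2-CM F7 was 4.63-fold higher than with control medium (exact 95% interval 1.33 to 16.7). It passed there on fold and adjusted p (log2 fold change 2.13, edgeR adjusted p = 0.0603) and missed only the mean count of 5. F5, factor V, had 5 counts in control medium in all, 33 with shControl-CM and 1 with shBrca2-CM, and was 16.9-fold higher with shControl-CM than with control medium (exact 95% interval 6.55 to 55.4, edgeR adjusted p = 0.000878). F5 was 21.3-fold higher with shControl-CM than with shBrca2-CM (exact 95% interval 3.56 to 865, edgeR adjusted p = 0.0266) and fell short of the mean count of 5 that a call needed. With libraries thinned to the smallest total F7 was not called with shControl-CM against control medium (1.43, edgeR adjusted p = 0.386). F5 (3.40, edgeR adjusted p = 0.0524), and Serpinb8 with shControl-CM (-3.25, edgeR adjusted p = 0.0213) and with shBrca2-CM (-1.93, edgeR adjusted p = 0.0210), then passed on fold and adjusted p and missed only the mean count of 5.

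Gas6, a vitamin K-dependent ligand of TAM receptors and a relative of protein S, followed the order of F3. It averaged 718 CPM in control medium, 30.0 CPM with shControl-CM and 81.4 CPM with shBrca2-CM, with log2 fold changes of -4.58 (edgeR adjusted p = 8.34e-07) and -3.12 (edgeR adjusted p = 1.82e-24) against control medium and 1.46 (edgeR adjusted p = 0.00279) between the conditioned media, all called under every alternative. Tgm2, a crosslinking transglutaminase, was lower with shControl-CM than with control medium (-0.63, edgeR adjusted p = 0.0170), a call lost without control medium replicate 1 (-0.64, edgeR adjusted p = 0.111) or replicate 2 (-0.59, edgeR adjusted p = 0.122). Mcfd2, which helps factors V and VIII leave the endoplasmic reticulum, was lower with shControl-CM (-0.78, edgeR adjusted p = 0.0544), lost without shControl-CM replicate 2 (-0.74, edgeR adjusted p = 0.176) or either control medium library (-0.86 and -0.70, edgeR adjusted p = 0.195 and 0.273). Vkorc1l1, a vitamin K epoxide reductase, was higher with shBrca2-CM (0.93, edgeR adjusted p = 0.0270), lost without shBrca2-CM replicate 3 (0.78, edgeR adjusted p = 0.177) or control medium replicate 1 (0.64, edgeR adjusted p = 0.199), under the likelihood ratio test of DESeq2 (adjusted p = 0.137) and in thinned libraries (0.73, edgeR adjusted p = 0.262).

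In all, 8 of the 15 coagulation genes were DE with shControl-CM against control medium, 4 higher and 4 lower, and 5 of the 14 tested with shBrca2-CM, 3 higher and 2 lower. These are 53.3% and 35.7% of the list, where the shares of all genes tested were 37.1% and 37.8%. Between the conditioned media 3 of 13 were DE, against 3.13% of all genes tested. Gas6 was one of them, Tgm2 was higher with shBrca2-CM (0.72, edgeR adjusted p = 0.0587) and Procr was lower (-0.90, edgeR adjusted p = 0.0672). Procr averaged 28.9 CPM with shBrca2-CM and 54.1 CPM with shControl-CM without overlap, yet its call was lost without shBrca2-CM replicate 1, 2 or 3 (adjusted p = 0.138, 0.264 and 0.290), under the likelihood ratio test of DESeq2 (adjusted p = 0.146), and with total counts for scaling (adjusted p = 0.111). The Tgm2 call was lost without shBrca2-CM replicate 1 or 2 or shControl-CM replicate 2 (adjusted p = 0.245, 0.258 and 0.230). The median log2 fold changes of the list were -0.18 and -0.31 against control medium and -0.07 between the conditioned media, beside -0.10, -0.05 and 0.03 for all genes tested.

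**Figure D4:**
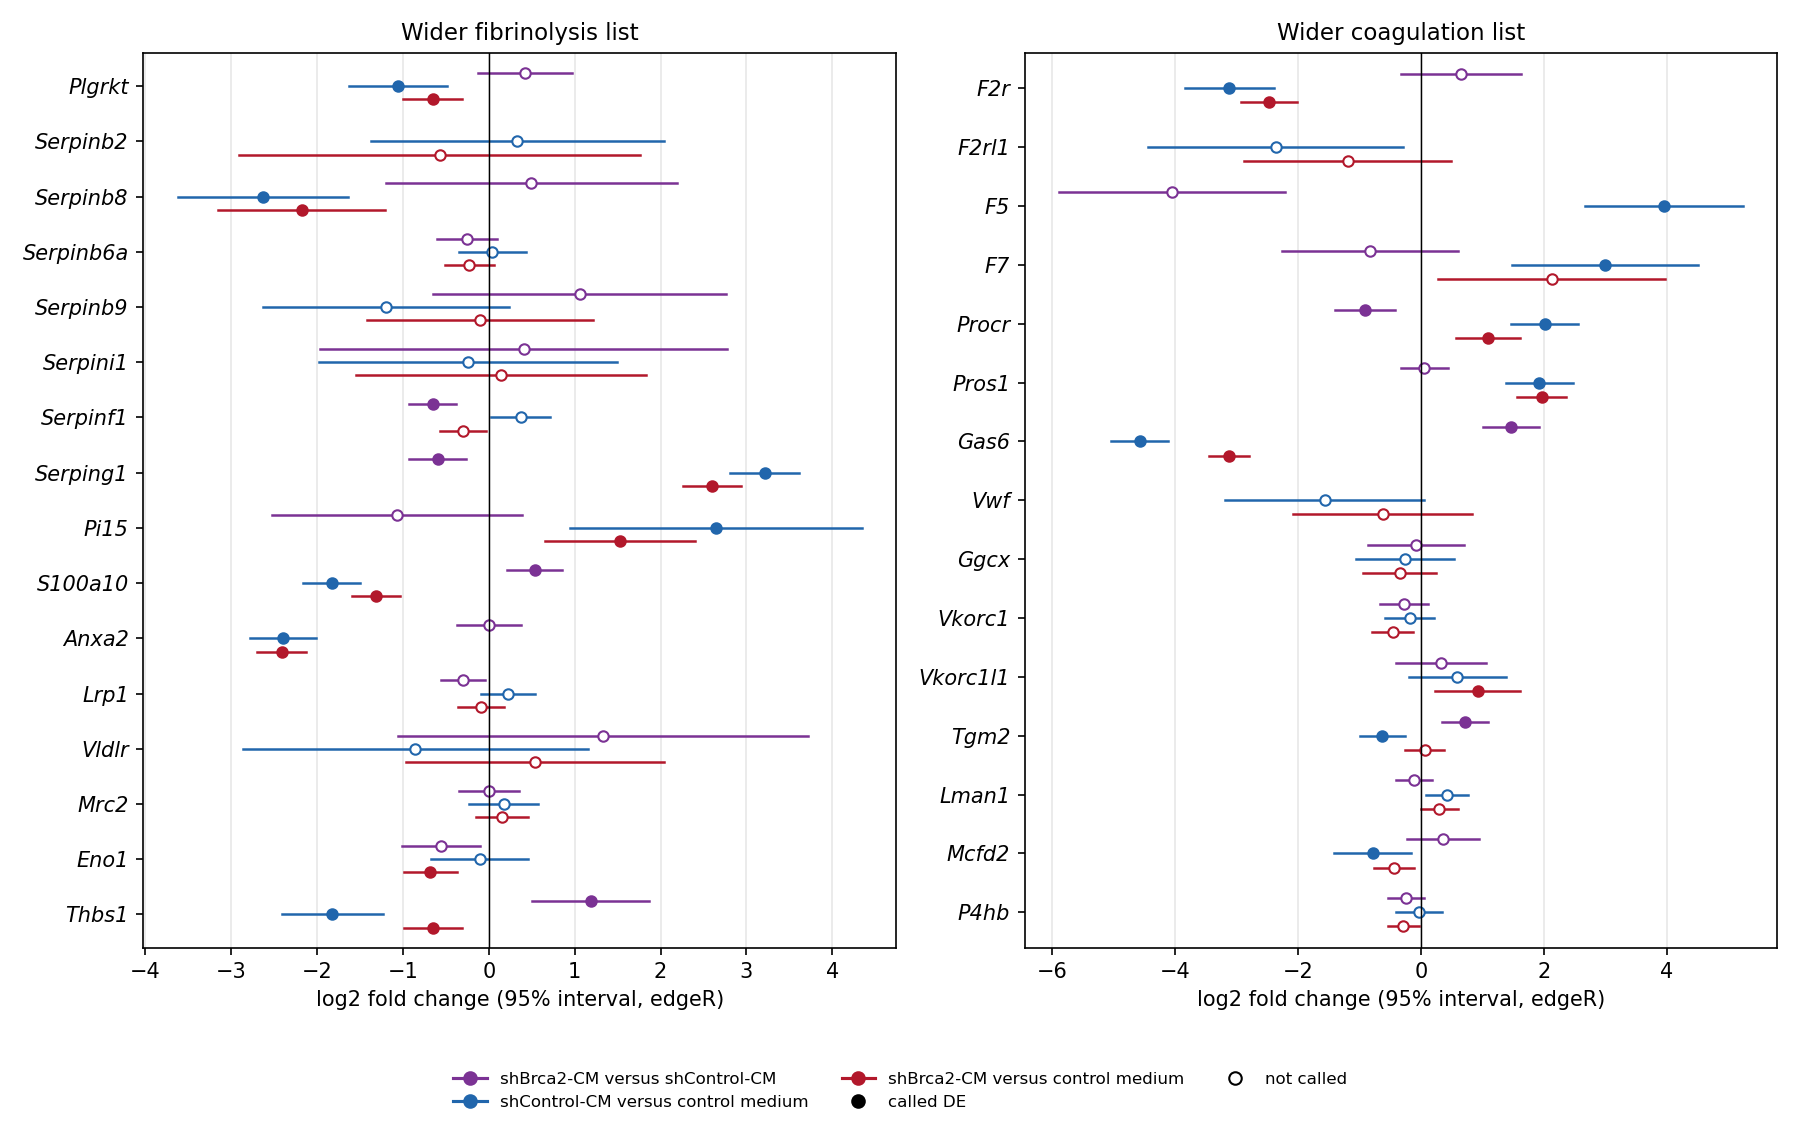
Log2 fold changes with 95% intervals from edgeR for tested genes of the wider fibrinolysis list (left) and coagulation list (right) in the 3 comparisons, with filled points for DE genes. Anxa2, S100a10, F2r and Gas6 lie left of 0 and Serping1, Procr and Pros1 right of 0 for both conditioned media against control medium.

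The genes whose levels ran most like those of each member were found by Pearson's r of log2 CPM over the 8 libraries, among 6453 genes with at least 10 counts in every library. Because the libraries form 3 media, r mostly ranks genes by their differences between media. For F3 these were Cnn2 (calponin 2, r = 0.994, at 1531, 319 and 541 CPM in control medium, shControl-CM and shBrca2-CM) and Gas6 (r = 0.991). For Thbd the leading gene was Mtpn (myotrophin, r = 0.987, at 57.3, 226 and 152 CPM). Plat ran most like Lrrfip1 (r = 0.983) and Ptk2 (focal adhesion kinase, r = 0.981), Serpine2 like Tm2d2 (r = 0.970) and Plxnd1 (plexin D1, r = 0.966), and Plaur like Ndrg1 (r = 0.968) and Ncapd3 (a condensin II subunit, r = 0.954). Tfpi and Tfpi2 had too few counts for this comparison.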

How the data were processed

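RNA of PSCs was measured in 8 MARS-seq 3′ libraries of 3 media. The values are raw read counts per gene as the authors deposited them, not normalized, with 1 column per dome. The submitters' processing notes name bcl2fastq, cutadapt, STAR 2.4.2a, HTSeq, DESeq2 and mm10 without giving their roles, and the counting of strand and molecular identifiers is not given in the sources used here. 1 column of per-sample values, named as a further DMEM library, matched no sample and was not used, so the control medium group has 2 libraries. Samples were grouped by their titles.

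Each pair of media was fitted alone in R 4.3.3 with edgeR 4.0.16 (quasi-likelihood test after TMM normalization, on genes whose counts summed to 10 or more in that pair, with Benjamini-Hochberg adjustment over all genes tested). DE genes had adjusted p below 0.1, log2 fold change above 0.5 in size and mean normalized count above 5. CPM uses TMM over all 8 libraries, and counting intervals are exact (Clopper-Pearson) and treat reads as independent molecules, so they cover counting error only. The fits were tested on simulated data.

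The members and lists were chosen with earlier results of these data known. Named were all members, of each list the called genes with the largest changes (up to 4 per direction and comparison) and 10 further genes of the lists where present, and the 2 genes most like each member with at least 10 counts in every library. A gene of the fibrinolysis list and a gene alike to a member that this rule names are not reported here, though both stayed in the fits and counts. Alternatives were DESeq2 1.42.0 (likelihood ratio and Wald tests), normalization by its size factors or by total counts, looser and stricter filters, a stricter call rule, all 3 media in 1 fit, a replicate block, thinning to 655996 counts by binomial sampling, and each library left out in turn. Annotation and promoter windows are from RefSeq on GRCm38.p6.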

Additional observations from a re-analysis of the deposited data

How the results depend on the processing

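The calls of Plat, F3 and Thbd with both conditioned media against control medium, of Serpine2 with shControl-CM and of Plaur with shBrca2-CM held under all 14 alternatives that kept the call rule. With each library left out in turn, the members called between the conditioned media ranged from 0 to 3, the fibrinolysis genes from 0 to 5 and the coagulation genes from 1 to 4. At adjusted p under 0.05 and log2 fold change over 1, 0 fibrinolysis and 1 coagulation genes were called between the conditioned media, and 3 members (Plaur, F3 and Tfpi2) and 5 fibrinolysis genes with shBrca2-CM against control medium, where Plat, Serpine2, Thbd and Tfpi were not, beside 1.18% and 18.1% of all genes tested. The uncalled log2 differences of Tfpi and Tfpi2 between the conditioned media changed sign, for Tfpi at -0.027 with thinned libraries and from -0.14 to 0.55 over the libraries left out, and for Tfpi2 from -1.16 to 0.56 over the libraries left out. With total counts in place of TMM, the mean of F3 in control medium was 248 CPM and that of Serpine2 with shControl-CM 255 CPM. That scaling moved the median log2 fold change of all genes between the conditioned media from 0.03 to 0.14, and DE genes from 174 higher and 171 lower to 250 higher and 120 lower. Leaving out 1 library gave 128 to 976 DE genes in that comparison, and against control medium 1901 to 5157 with shControl-CM and 3903 to 4510 with shBrca2-CM. With all 8 libraries, thinning left 2919 DE genes with shControl-CM against control medium, where the full libraries gave 4488. Why these values moved was not tested.

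Same-numbered samples of the 2 conditioned media deviated from their group means with correlations of -0.0531, 0.0279 and 0.138. Unlike-numbered samples of these media gave -0.199 to 0.200. These values gave no sign that the numbers pair the samples, but so few libraries cannot settle it. With the replicate block, 1, 6 and 5 members were called in the 3 comparisons, 3, 7 and 9 fibrinolysis genes and 3, 8 and 5 coagulation genes, beside 311, 4512 and 3850 of all genes tested (345, 4488 and 4555 without it). Tfpi was then called with shControl-CM (log2 fold change 0.91, edgeR adjusted p = 0.0762) and not with shBrca2-CM (0.64, edgeR adjusted p = 0.373), and Tfpi2 was not called with shBrca2-CM (-1.09, edgeR adjusted p = 0.181). The calls of S100a10 between the conditioned media (0.53, edgeR adjusted p = 0.147) and of Vkorc1l1 with shBrca2-CM (0.77, edgeR adjusted p = 0.189) were lost as well. After thinning, Tfpi, F7 and Vkorc1l1 missed the adjusted p, while Tfpi2, F5, Serpinb8 and Pi15 (with shBrca2-CM) missed only the mean count that a call needs.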
